A study of Procambarus virginalis with 6 samples.

Results

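The SGC-like hemocytes with low GC markers are the cells of marbled crayfish (Procambarus virginalis) hemolymph that were selected on 15 features of the single-cell count tables. A cell was a member when 4 features, called S here, held at least 2% of its unique molecular identifiers (UMIs, the counted RNA molecules). In addition, 4 features of granular cells (G) had to hold under 5%, 5 features of hemocyte-derived neuronal precursors (H) under 1% and 2 features of circulating prohemocytes (C) under 0.5%. Cells with 100 to 2000 detected features were kept. Of 11521 kept cells from 6 animals, 5925 were members: 357 of 881 in KD1, 338 of 635 in KD2, 1056 of 2869 in KD3, 3343 of 5318 in Ctrl1, 620 of 1196 in Ctrl2 and 211 of 622 in Ctrl3. Most members thus came from 1 control animal, and values are given per animal throughout.

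Crayfish hemocytes are the circulating immune cells, and are divided by their granules into hyaline cells, semigranular cells (SGCs) and granular cells (GCs). SGCs are known for phagocytosis and for the encapsulation of foreign particles, and GCs for the storage and release of antimicrobial and melanisation proteins. Some hemocytes are also regarded as a source of neuronal precursors (HDNPs), and circulating prohemocytes (CPHs) are the less differentiated cells.

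The study asked whether lowering Dnmt1, the maintenance DNA methyltransferase, changes these populations. In the Dnmt1 knockdown (KD) group, 3 animals received double-stranded RNA against Dnmt1 (dsDnmt1) in the hemolymph, and in the control (Ctrl) group 3 animals received double-stranded RNA against GFP (dsGFP). Hemolymph was taken from both groups 28 days post injection (dpi), and 1 library of hemocytes was made per animal with droplet-based 3' chemistry. The species is clonal, so all animals share nearly the same genome, and the study's reporting form gives its animals as females aged 1 to 3 years, without an age for each library. The features carry identifiers without gene names, so neither the level of Dnmt1 nor any known SGC gene was checked here, and "SGC-like" only names cells rich in the S features.

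The libraries differed in depth and in background. The kept cells of a library held 188578 (KD2) to 2413375 (KD3) UMIs, and the median cell held 1258 UMIs in KD1, 223 in KD2 and 596 in KD3, against 281 in Ctrl1, 1140 in Ctrl2 and 738.5 in Ctrl3. KD2 shared cell barcodes with other libraries: 110 with KD1, 113 with Ctrl3, 9 with Ctrl2 and 1 with KD3. In all, 121 of the 338 members of KD2, 68 of KD1, 60 of Ctrl3 and 4 of Ctrl2 had a barcode seen in another library, against none in KD3 and Ctrl1. In the KD1 and KD2 pair both cells of a shared barcode were members 56 times, neither was 39 times, and 1 of them was 15 times. With unrelated classes both would be members 23.7 times, from the share of members in each library. For KD2 and Ctrl3 both were members 55 times, against 20.4 with unrelated classes. Why the classes of shared barcodes went together was not tested. An alternative kept only the deepest cell of each shared barcode. The share of members then differed between KD and Ctrl by -6.69 points in place of -6.02. The S level over all cells differed by -51.8 UMIs per 10000 in place of -38.5, and 728 features in place of 797 were called between members and other cells.

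The RNA outside kept cells also differed between libraries. In barcodes below 100 features, which were not kept, the S features made up 11.6 of 10000 UMIs in KD1, 231 in KD2 and 10.6 in KD3, against 159 in Ctrl1, 10.5 in Ctrl2 and 8.64 in Ctrl3. KD2 and Ctrl1, the shallow libraries, thus stood apart. Among the kept H-rich cells, the S features held 12.1, 83.2 and 18.1 of 10000 UMIs in KD1, KD2 and KD3, against 69.4, 20.6 and 11.8 in Ctrl1, Ctrl2 and Ctrl3. This class was set by the H share alone and can hold cells with S at or above 2%, so these levels need not be background. The level in the unkept barcodes of KD2 lay above the 200 of 10000 that made a cell a member, and all the others lay below it. Whether these barcodes hold free RNA or small cells cannot be told apart, and their part in the share of members in KD2 was not tested. The value for H-rich cells of KD3 rests on 2 cells.

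The label was checked by clustering Ctrl1, the library in which the S features had been found, at the settings the study describes. Of 4 clusters the largest held 4086 cells. It contained 97.9% of the members of Ctrl1, and 80.1% of its cells were members. The S features ranked 1 to 4 by average fold change in this cluster among 158 features seen in at least 25% of its cells or of the rest. This is the origin of the list and no test of it. The other cells of the cluster were nearly all low-marker cells (773), that is, cells below all 4 thresholds.

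The S features were not equally abundant. WNGS01001312.118487_1_covsplit held most S UMIs in the members of every animal, with 72.4% in KD1, 83.7% in KD2 and 94.0% in KD3, against 70.9% in Ctrl1, 87.2% in Ctrl2 and 76.4% in Ctrl3. Its level in members was 433, 557 and 488 UMIs per 10000 in KD1, KD2 and KD3, against 392, 595 and 398 in Ctrl1, Ctrl2 and Ctrl3. It ranked between 1 and 4 among all features in the members, and between 26 and 51 in the other cells of the same animals. As the members were chosen by these features, all S levels are descriptions.

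WNGS01021324.680489_28_covsplit came next and varied more between animals. Its level in members was 134, 82.3 and 22.2 UMIs per 10000 in KD1, KD2 and KD3, against 91.8, 70.1 and 88.1 in Ctrl1, Ctrl2 and Ctrl3. KD3 stood below all other animals. The same animal was lowest for WNGS01160430.1871674_2_covsplit, with 4.14 UMIs per 10000, against 23.2 and 20.8 in KD1 and KD2 and 27.8, 13.0 and 27.7 in Ctrl1, Ctrl2 and Ctrl3. WNGS01004946.335539_1_covsplit was high in 1 animal. It had 7.83, 5.45 and 5.05 UMIs per 10000 in the members of KD1, KD2 and KD3, against 41.0 in Ctrl1, 4.22 in Ctrl2 and 7.32 in Ctrl3. The summed S level of members was 594 ± 72.7 UMIs per 10000 in KD and 585 ± 85.7 in Ctrl (SD, n = 3 each), so these differences among the single features were hidden in the sum.

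**Figure D1:**
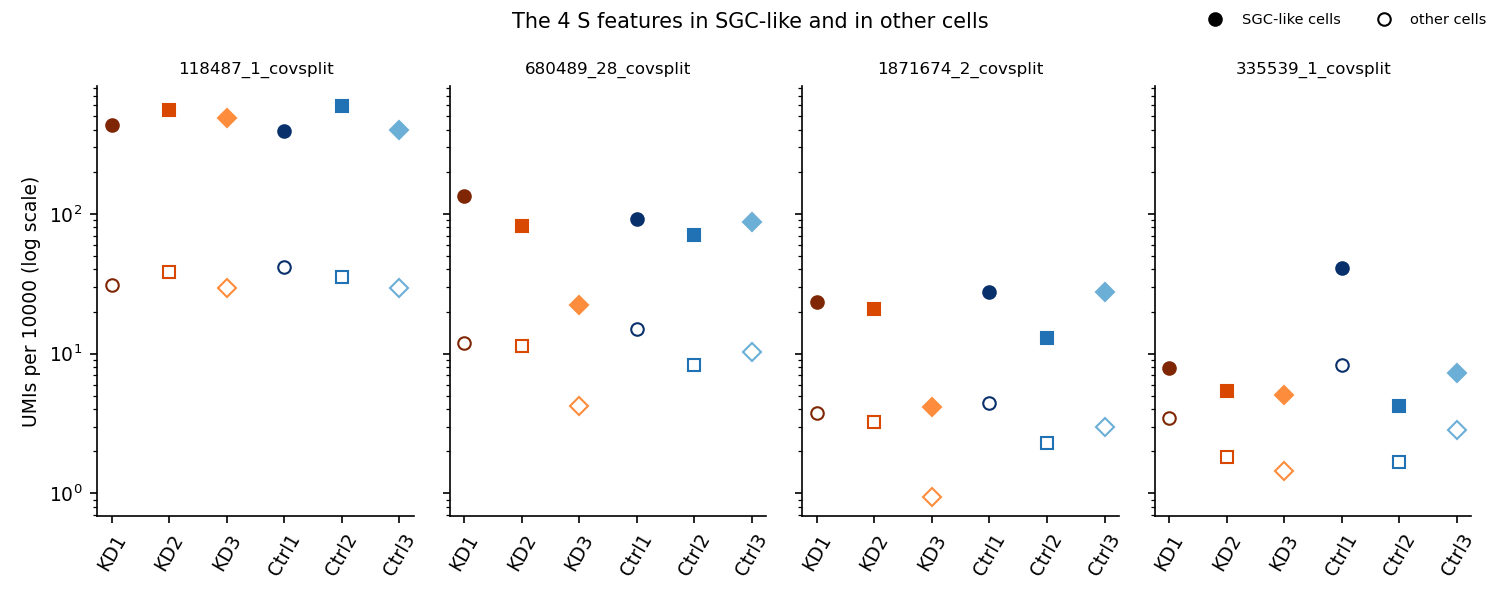
Level of each S feature (UMIs per 10000, log scale) in SGC-like cells (filled) and in all other kept cells (open) of each animal, KD animals left of Ctrl animals, 1 panel per feature. Feature WNGS01001312.118487_1_covsplit lay between 392 and 595 in the members of all 6 animals, while WNGS01021324.680489_28_covsplit and WNGS01160430.1871674_2_covsplit were lowest in KD3 (22.2 and 4.14) and WNGS01004946.335539_1_covsplit was highest in Ctrl1 (41.0).

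How many members depend on the most abundant feature followed from this. Members that reached 2% on WNGS01001312.118487_1_covsplit alone were 60.5%, 74.3% and 88.9% of the members of KD1, KD2 and KD3, against 61.3%, 85.5% and 69.2% in Ctrl1, Ctrl2 and Ctrl3. When the other 3 S features were required to hold 0.5% of UMIs instead, 70.0%, 53.6% and 18.0% of the members of KD1, KD2 and KD3 also passed, against 80.7%, 41.8% and 53.6% of those of Ctrl1, Ctrl2 and Ctrl3. All 4 S features were detected in 46.2% of members in KD1 but in 4.14% in KD2 and 4.92% in KD3, against 20.3%, 24.0% and 25.1% in Ctrl1, Ctrl2 and Ctrl3. In KD3, 43.1% of members carried a single S feature. The median member held 67, 12 and 26 S UMIs in KD1, KD2 and KD3, against 14, 66 and 38 in Ctrl1, Ctrl2 and Ctrl3, so that calls in KD2 and Ctrl1 rest on few molecules.

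No gap in the S share marked the threshold. Its median in members was 4.40%, 4.83% and 4.01% in KD1, KD2 and KD3, against 4.87%, 5.46% and 4.20% in Ctrl1, Ctrl2 and Ctrl3, and the highest cell reached 24.2% (KD2). Just inside the threshold (S from 2 to 2.5%) lay 25, 41 and 157 members of KD1, KD2 and KD3 and 255, 71 and 28 of Ctrl1, Ctrl2 and Ctrl3. Just outside it (1.5 to 2%) lay 45, 38 and 163 cells of KD1, KD2 and KD3 and 191, 52 and 27 of Ctrl1, Ctrl2 and Ctrl3. In KD3 the median cell held 518 UMIs just inside and 475 just outside.

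The members held few of the other markers, as required by the rule, and their G level was close to that of low-marker cells. The 4 G features summed to 112, 142 and 84.5 UMIs per 10000 in the members of KD1, KD2 and KD3, against 161, 117 and 96.6 in Ctrl1, Ctrl2 and Ctrl3. In low-marker cells the same sum was 128, 150 and 86.9 in KD1, KD2 and KD3, and 180, 142 and 101 in Ctrl1, Ctrl2 and Ctrl3. Members thus lay far below the G-rich cells (1345 to 4514), and slightly below the low-marker cells in all 6 animals. These levels are shares of all UMIs, S UMIs included. The S features held 520 to 683 of 10000 UMIs in members, against 56.1 to 90.2 in low-marker cells. The choice of members by S thus lowers their G level, and the small gap to low-marker cells cannot be read as less G RNA. Between 69.0% (KD3) and 99.2% (KD1) of the G sum in members came from WNGS01001312.121569_1_covsplit, which was detected in 90.8% to 100% of members. Within members the G share fell slightly with the S share, with Spearman's rho of -0.18, -0.29 and -0.08 over the cells of KD1, KD2 and KD3 and -0.18, -0.20 and -0.12 over those of Ctrl1, Ctrl2 and Ctrl3. Both shares come from the same UMIs and depth of a cell. The H features summed to 3.95 to 12.2 UMIs per 10000 and the C features to 0.034 to 0.56.

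Only 45 cells were rich in both S and G, 32 of them from Ctrl1. No other animal reached the 10 cells needed for a sum, so members could not be tested against this class.

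The share of SGC-like cells did not separate KD from Ctrl animals. Members made up 40.5%, 53.2% and 36.8% of kept cells in KD1, KD2 and KD3, against 62.9%, 51.8% and 33.9% in Ctrl1, Ctrl2 and Ctrl3. Exact binomial intervals (Clopper-Pearson, 95%), a measure of counting error alone, spanned 35.0% to 38.6% in KD3 and 61.5% to 64.2% in Ctrl1, far less than the spread between animals of 1 group. The groups averaged 43.5% ± 8.61 in KD and 49.5% ± 14.6 in Ctrl (SD, n = 3 each), a KD minus Ctrl difference of -6.02 points (p = 0.70 by an exact permutation of the 6 animals, two-sided, where 0.1 is the lowest value possible). Ctrl3 was below all KD animals and Ctrl1 above all of them, so the groups overlapped. The sign of the difference rested on Ctrl1, without which it was 0.64 points (exact permutation p = 0.80). Low-marker cells, the other large class, made up 41.3% ± 7.68 in KD and 37.5% ± 20.2 in Ctrl (SD, n = 3 each; exact permutation p = 0.80).

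**Figure D2:**
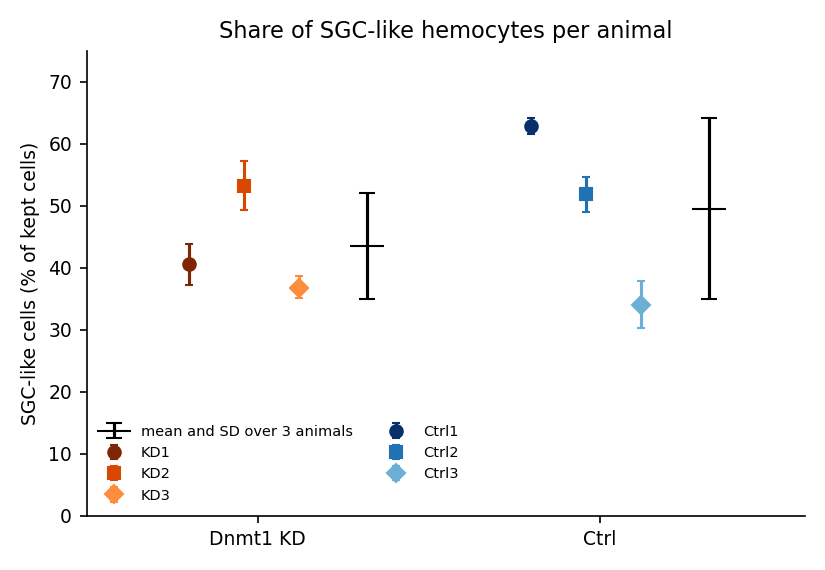
Share of SGC-like cells (% of kept cells) in each KD and Ctrl animal, with exact 95% binomial intervals, and the mean and SD over 3 animals in black. The KD animals lay between 36.8% and 53.2% and the Ctrl animals between 33.9% and 62.9%, so the groups overlapped.

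The level of the S features over all kept cells, which needs no choice of cells, gave the same picture. It was 294, 346 and 186 UMIs per 10000 in KD1, KD2 and KD3, against 336, 378 and 228 in Ctrl1, Ctrl2 and Ctrl3. The difference of the means was -38.5 (275 in KD, 314 in Ctrl; exact permutation p = 0.60). Fewer SGC-like cells and less S RNA per cell cannot be told apart in this measure.

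SGC-like cells were more diverse in their transcripts than other cells of the same animal. The 15 rule features were removed, and each cell with at least 150 remaining UMIs was thinned to 150. Cells with fewer were left out. In KD2 this kept 142 of 181 members with S at 2 to 5%, 93 of 102 at 5 to 10% and 51 of 55 above. Members then showed 114, 106 and 82.2 features on average in KD1, KD2 and KD3, and 86.9, 109 and 111 in Ctrl1, Ctrl2 and Ctrl3. The other cells showed 105, 96.7 and 64.6 in KD1, KD2 and KD3, and 83.6, 96.9 and 97.6 in Ctrl1, Ctrl2 and Ctrl3. Members were higher in 6 of 6 animals, by 10.7 ± 4.74 features (SD; exact sign-flip permutation test, p = 0.03125, the smallest 6 animals can give). The gap was widest in KD3 (17.5 features) and narrowest in Ctrl1 (3.39 features). Against low-marker cells alone, a comparison added after the class sizes were seen, it was 7.20 features and again positive in 6 of 6 animals (exact permutation p = 0.03125). Leaving out the deepest 5% of cells reduced the gap against all other cells to 7.39 (exact permutation p = 0.0625). A p above 0.03125 with 6 animals means that members were not higher in every animal there. Within members the number seen in 150 UMIs fell slightly with the S share in all animals but KD3. Spearman's rho was -0.10, -0.14 and 0.20 over the cells of KD1, KD2 and KD3. Over those of Ctrl1, Ctrl2 and Ctrl3 it was -0.23, -0.03 and -0.06. Before thinning, the median member held 609, 142 and 210 features in KD1, KD2 and KD3 and 132, 522 and 386 in Ctrl1, Ctrl2 and Ctrl3. The median other cell held 518, 132 and 167 in KD1, KD2 and KD3 and 131, 465 and 318 in Ctrl1, Ctrl2 and Ctrl3.

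Members were also slightly deeper in 5 of 6 animals, which missed the threshold of the test. The median member held 1443, 229 and 634.5 UMIs in KD1, KD2 and KD3, against 1161.5, 211 and 570 in the other cells of the same animals. In Ctrl1, Ctrl2 and Ctrl3 it held 279, 1255 and 854 UMIs, against 284, 1073 and 685 in the other cells. The mean log2 ratio was 0.18 ± 0.13 (SD, n = 6 animals; exact sign-flip permutation p = 0.0625). With the 15 rule features left out, the 10 most abundant features took 16.4%, 18.8% and 32.3% of the UMIs of members in KD1, KD2 and KD3, against 23.8%, 22.5% and 39.2% in the low-marker cells of the same animals. They took 33.9%, 21.7% and 16.7% in the members of Ctrl1, Ctrl2 and Ctrl3, against 36.9%, 30.0% and 23.4% in their low-marker cells. Over all other cells the share was 24.6% to 53.6%, but these include the cells rich in G, H or C, which the rule keeps out of the members.

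**Figure D3:**
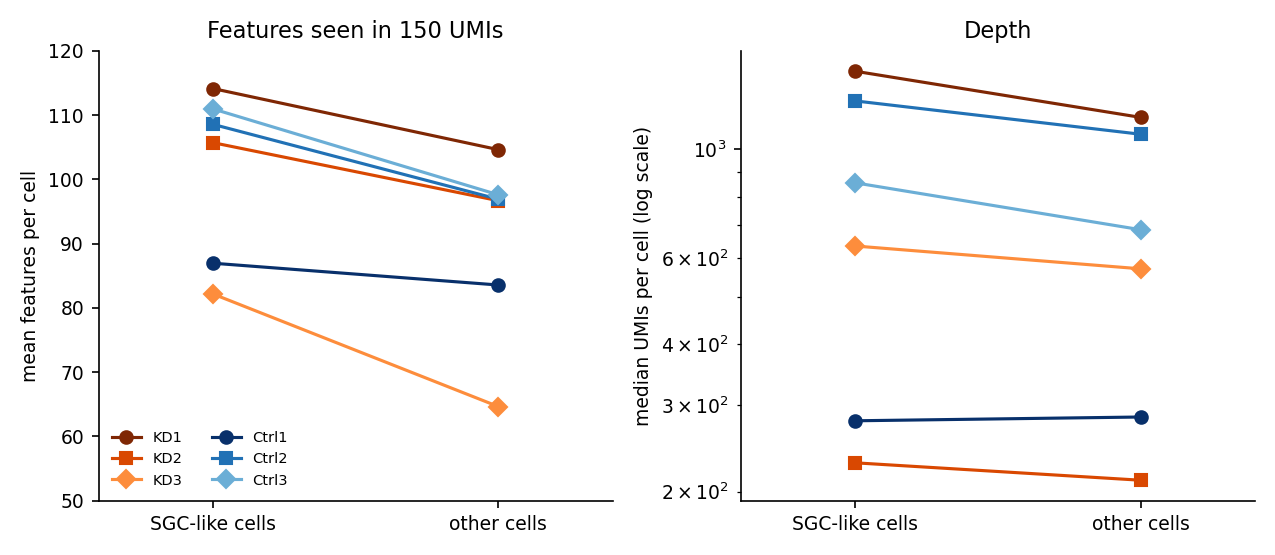
Mean number of features seen in 150 UMIs (left) and median UMIs per cell (right, log scale) in SGC-like and in other cells, with a line for each animal. All 6 lines fell on the left, from 17.5 features in KD3 to 3.39 in Ctrl1, and 5 of 6 fell on the right.

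Which other features marked the members was tested on UMI sums per animal in Ctrl2, Ctrl3, KD1, KD2 and KD3, with the animal as a block and the rule features left out. Ctrl1 was kept aside because the S features came from it. Of 4050 features tested, 797 (19.7%) passed an adjusted p of 0.05 in edgeR's quasi-likelihood test, 426 of them (10.5%) higher and 371 (9.16%) lower in members. Since all cells rich in G, H or C lie among the other cells, part of the lower calls was fixed by the choice of members. The median log2 fold change was 0.74 among the features called higher and -0.85 among those called lower, with 110 and 147 features past a log2 change of 1. Of the features called higher, 385 of 426 were higher in members of all 5 animals, and of those called lower 111 of 371 were lower in all 5. The count fell to 518 without Ctrl2 and to 480 without KD1, and DESeq2 called 443.

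The directions were then read in Ctrl1. Of the features called higher with at least 20 UMIs in that animal, 327 of 344 (95.1%) were also higher in its members, against 66.0% of all 2191 tested features with that many UMIs. Of those called lower, 224 of 264 (84.8%) were lower in its members, against 34.0% of all.

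The strongest rises were in features that other cells almost lacked. WNGS01001312.117977_1_covsplit was at 8.32, 8.48 and 4.05 UMIs per 10000 in the members of KD1, KD2 and KD3, against 0.44, 0.87 and 0.37 in their other cells. It was at 9.14, 4.52 and 11.3 in the members of Ctrl1, Ctrl2 and Ctrl3, against 1.86, 0.18 and 0.65 in their other cells. No animal's members overlapped any animal's other cells, and the log2 fold change was 3.60 ± 0.17 (SE; edgeR adjusted p = 5.3e-35). WNGS01092210.1249897_2_covsplit was rarer, with 0.88, 3.15 and 1.86 UMIs per 10000 in the members of KD1, KD2 and KD3 and 1.55, 0.33 and 2.18 in those of Ctrl1, Ctrl2 and Ctrl3. In the other cells it was at 0.085, 0.33 and 0.12 in KD1, KD2 and KD3, at 0.22 and 0.14 in Ctrl1 and Ctrl3, and at 0 in Ctrl2. Its log2 fold change was 3.41 ± 0.24 (SE; edgeR adjusted p = 3.1e-22).

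The features with the largest falls were nearly confined to the other cells. WNGS01042707.846585_1_covsplit had 6 UMIs in the members of the 5 animals fitted, against 455 in their other cells, and its log2 fold change was -6.04 ± 0.31 (SE; edgeR adjusted p = 9.9e-32). Of these 455 UMIs, 425 lay in the cells rich in G and poor in S, which the rule keeps out of the members. Its fall thus follows largely from the choice of members. WNGS01113158.1462142_0_covsplit had 1 UMI in members, against 107 in other cells, with a log2 fold change of -5.98 ± 0.58 (SE; edgeR adjusted p = 5.7e-15). In Ctrl1 both were rare, with 0 UMIs in members and 6 and 0 UMIs in the other cells.

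The most abundant feature among the strong rises, chosen for display after its values were seen, was WNGS01135237.1642610_2_covsplit. Its level in members was 224, 201 and 299.7 UMIs per 10000 in KD1, KD2 and KD3, against 19.0, 33.3 and 45.3 in their other cells. In the members of Ctrl1, Ctrl2 and Ctrl3 it was 597, 186 and 283, against 179.7, 16.2 and 29.2 in their other cells. The log2 fold change over the 5 fitted animals was 2.78 ± 0.15 (SE; edgeR adjusted p = 2.2e-29). Among the other classes it was highest in low-marker cells of KD1, KD2, KD3, Ctrl2 and Ctrl3, while Ctrl1 had more of it in every class than those animals had outside members. At least 1 UMI was seen in 95.5%, 75.1% and 97.2% of members of KD1, KD2 and KD3 (median depth 1443, 229 and 634.5 UMIs), against 32.6%, 40.5% and 55.0% of the G-rich S-low cells of these animals (1906, 931 and 1724 UMIs). In Ctrl1, Ctrl2 and Ctrl3 it was seen in 98.5%, 84.8% and 94.8% of members (279, 1255 and 854 UMIs), against 98.3%, 39.1% and 54.8% of the G-rich S-low cells (941, 2821 and 1440 UMIs). Detection thus did not tell the classes apart in Ctrl1, although the level was higher in its members (597 against 183 UMIs per 10000). In H-rich cells the share was 29.4% (KD2) to 79.2% (Ctrl1), and neither class is known to lack this feature, so no background share can be given. Within members its share rose with the S share, with Spearman's rho of 0.34, 0.45 and 0.47 over the cells of KD1, KD2 and KD3 and 0.44, 0.48 and 0.48 over those of Ctrl1, Ctrl2 and Ctrl3. Both shares come from the same cells and depth.

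**Figure D4:**
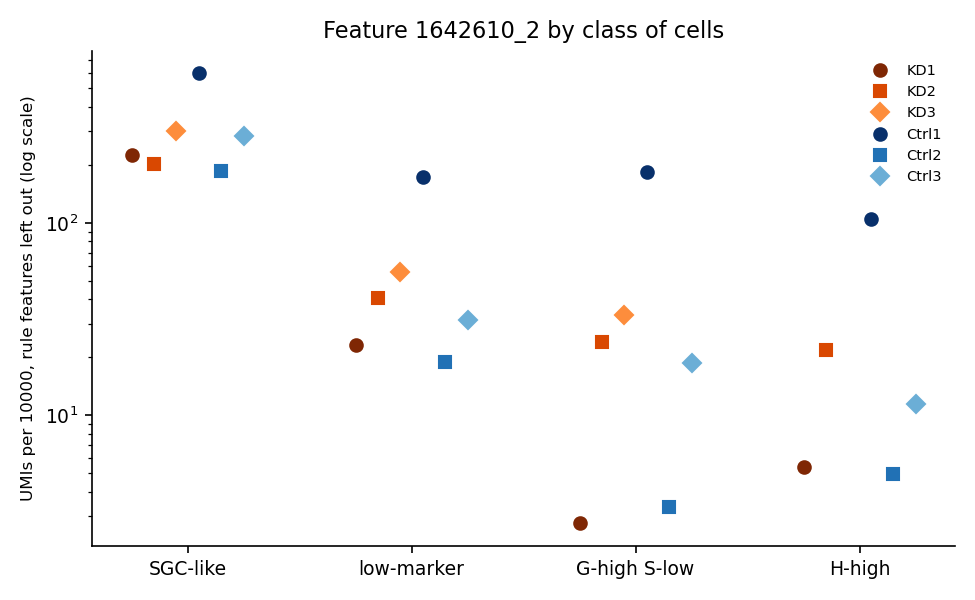
Level of feature WNGS01135237.1642610_2_covsplit (UMIs per 10000 after the rule features were left out, log scale) by class of cells in each animal, for classes of at least 10 cells. Members lay between 186 and 597, and the low-marker cells of the same animals between 19.0 and 173.

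Against low-marker cells alone, which differ from members only by the S threshold, 470 of 3749 features (12.5%) were called, 263 (7.02%) higher and 207 (5.52%) lower. The rises led by size were the same pair: WNGS01092210.1249897_2_covsplit at a log2 fold change of 3.73 ± 0.30 and WNGS01001312.117977_1_covsplit at 3.57 ± 0.19 (SE; edgeR adjusted p = 1.4e-14 and 1.2e-20). Feature WNGS01135237.1642610_2_covsplit had a log2 fold change of 2.73 ± 0.16 (SE; edgeR adjusted p = 3.4e-19). The features with the largest falls were rare ones. WNGS01135237.1639872_5_covsplit had 13 UMIs in members of the 5 animals, against 93 in low-marker cells (log2 fold change -3.02 ± 0.40 SE; edgeR adjusted p = 5.3e-08). WNGS01164858.2237187_0_covsplit had 30 UMIs in members, against 176 in low-marker cells (-3.01 ± 0.29 SE; edgeR adjusted p = 5.1e-12), but in Ctrl1 it was at 0.22 UMIs per 10000 in members and 0.20 in low-marker cells. The members also differed from low-marker cells in depth, by a mean log2 ratio of 0.29 in median UMIs (exact sign-flip permutation p = 0.03125), and the part of depth in these calls was not tested.

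The change with the S share was gradual. In Ctrl1, outside the fit, the 426 features called higher summed to 2705 UMIs per 10000 in cells with S under 0.5%, 2777 at 0.5 to 1%, 3352 at 1 to 2%, 4069 at 2 to 3%, 4360 at 3 to 5%, 4412 at 5 to 10% and 4159 above. The cells of Ctrl1 just below the threshold were thus intermediate, and its sum changed little above 3%. In the 5 animals on which the features had been called, the sum was higher above 10% than at 3 to 5%: 3226 against 2893 in KD1, 3227 against 2555 in KD2, 3873 against 3440 in KD3, 2674 against 2138 in Ctrl2 and 3675 against 3128 in Ctrl3. KD1 was lower in between, with 2814 at 5 to 10%. Without WNGS01135237.1642610_2_covsplit the sum in Ctrl1 was highest at 3 to 5% (3901) and was 3264 above 10%. Without that feature the sum in KD1 was nearly the same above 10% (2750) as at 3 to 5% (2748). It stayed higher above 10% in KD2 (2839 against 2396), KD3 (3398 against 3177), Ctrl2 (2288 against 2047) and Ctrl3 (3167 against 2886). The 371 features called lower summed in Ctrl1 to 3822 UMIs per 10000 in cells with S under 0.5%, to 1927 at 3 to 5%, to 2056 at 5 to 10% and to 2440 above 10%. Cells rich in G, H or C were left out of these sums.

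**Figure D5:**
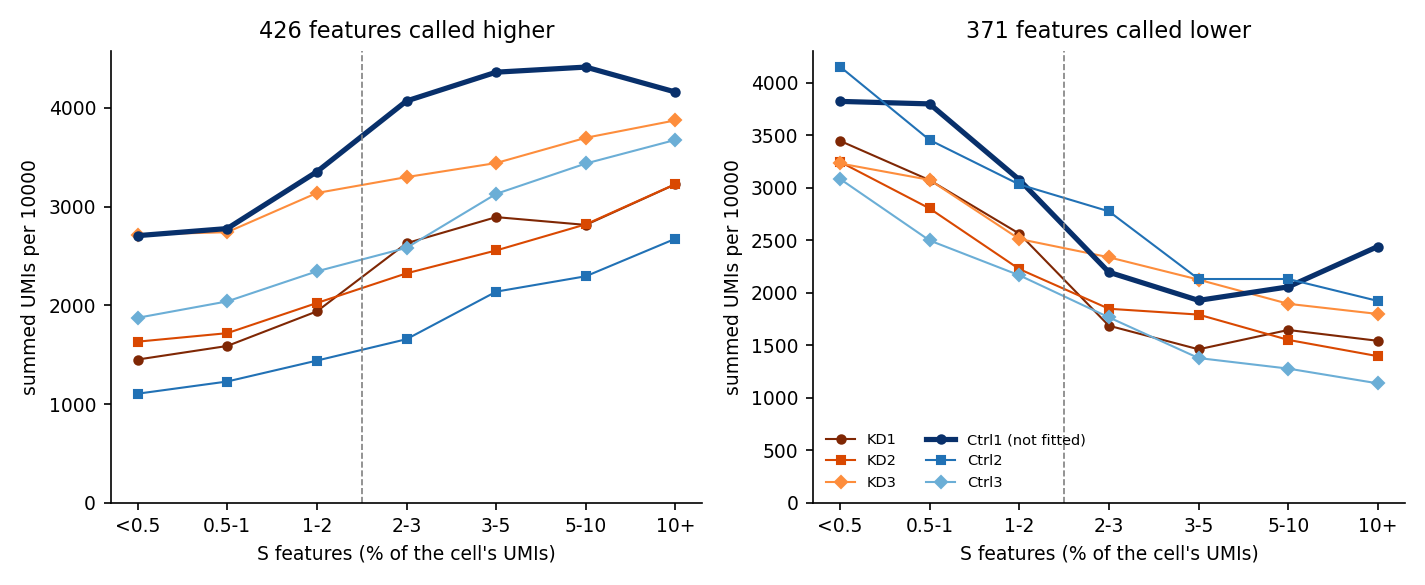
Summed level (UMIs per 10000) of the features called higher (left) and lower (right) in members, by the cell's S share, for cells with low G, H and C in each animal. The dashed line is the threshold of 2%. In Ctrl1 (thick line), which was not fitted, the left sum was 2705 below 0.5% and 4360 at 3 to 5%.

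Sequence neighbours of the S features were looked at by their identifiers, since no genome was used here. Of 480 other tested features whose identifier begins with the same sequence name as an S feature, 57 (11.9%) were called higher and 36 lower, close to the 10.5% of all features called higher. One of them, WNGS01021324.680489, carries the same number as the S feature WNGS01021324.680489_28_covsplit and was higher in members of all 6 animals (log2 fold change 1.07 ± 0.16 SE; edgeR adjusted p = 3.7e-08). It was named after its values were seen, and whether it shares reads with that S feature was not tested. WNGS01001312.117977_1_covsplit, the largest named rise against other cells, begins with the same sequence name as the S feature WNGS01001312.118487_1_covsplit. The G feature WNGS01001312.121569_1_covsplit does so too. Of 249 tested features with that name, 28 (11.2%) were called higher and 19 lower.

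Members were next set against the cells rich in G and poor in S, called GC-like here for their G features. Of 1162 features with enough counts in 37 to 502 such cells per animal, 405 (34.9%) were called, 253 (21.8%) higher and 152 (13.1%) lower in members. The median log2 fold change of all tested features was 0.14. WNGS01165218.2281402_0_covsplit was at 36.1, 7.27 and 0.63 UMIs per 10000 in the members of KD1, KD2 and KD3 and 79.1, 9.21 and 8.13 in those of Ctrl1, Ctrl2 and Ctrl3. GC-like cells had no UMI of it in KD1, KD2, KD3 and Ctrl2, 1 UMI in Ctrl3 and 9.80 UMIs per 10000 in Ctrl1. Its level in members thus varied widely between animals, with KD3 lowest and Ctrl1 highest. WNGS01000690.81364_0_covsplit was at 14.5, 7.39 and 0.91 UMIs per 10000 in the members of KD1, KD2 and KD3 and 0.69, 7.71 and 7.67 in those of Ctrl1, Ctrl2 and Ctrl3, against a total of 1 UMI in GC-like cells of the 5 animals fitted. The log2 fold changes were 7.71 ± 0.58 and 7.18 ± 0.59 (SE; edgeR adjusted p = 2.1e-38 and 3.9e-32), and with 1 UMI on the other side they depend on the prior count. The value of WNGS01165218.2281402_0_covsplit was 10.93 without Ctrl3, 6.70 without KD1 and 3.99 with all 6 animals, and that of WNGS01000690.81364_0_covsplit was 9.47 without Ctrl2 and 5.74 with all 6 animals. Both stayed past the threshold in these fits (largest edgeR adjusted p = 2.4e-09).

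In the other direction, WNGS01004946.327884_0_covsplit had no UMI in the members of the 5 fitted animals and 92 in their GC-like cells. Against a floor of 3 UMIs over the group it was at least 67.9-fold lower in members (edgeR adjusted p = 2.2e-41). Feature WNGS01042707.846585_1_covsplit had 6 UMIs in members and 425 in GC-like cells, with a log2 fold change of -8.79 ± 0.39 (SE; edgeR adjusted p = 6.9e-105).

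Within SGC-like cells, no feature passed the test between KD and Ctrl. Sums per animal over the members were compared for 4196 features, and 0 (0%) had an adjusted p under 0.05 in edgeR, the smallest being 0.997. At an unadjusted p under 0.05 there were 80, 46 higher and 34 lower in KD, which is 1.91% of those tested. DESeq2 also called 0, with 98 at an unadjusted p under 0.05. The animals of 1 group differed widely: the median SE of a log2 fold change was 0.68, against 0.25 for members against other cells, where each animal serves as its own control. The count of 0 therefore does not show that the groups were alike.

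The features with the smallest unadjusted p are given as values. WNGS01111181.1401644_3_covsplit was at 4.02, 1.33 and 1.49 UMIs per 10000 in the members of KD1, KD2 and KD3, against 0.25, 0.19 and 0.84 in Ctrl1, Ctrl2 and Ctrl3 (log2 fold change 2.47 ± 0.69 SE; edgeR adjusted p = 0.997). WNGS01002990.227976_0_covsplit had 9, 3 and 14 UMIs in KD1, KD2 and KD3, against 1, 1 and 2 in Ctrl1, Ctrl2 and Ctrl3. WNGS01111181.1409398_3_covsplit was at 0.44, 0 and 0.23 UMIs per 10000 in KD1, KD2 and KD3, against 4.58, 2.06 and 1.30 in Ctrl1, Ctrl2 and Ctrl3 (-3.78 ± 1.04 SE; edgeR adjusted p = 0.997). WNGS01005978.430727_7_covsplit was at 0.71, 0.97 and 0.50 in KD1, KD2 and KD3, against 1.83, 3.91 and 1.86 in Ctrl1, Ctrl2 and Ctrl3 (-1.89 ± 0.55 SE; edgeR adjusted p = 0.997). The groups did not overlap in any of the 4, as in 147 of all 4196 features (3.50%), 60 higher and 87 lower in KD.

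The marker sums of members did not separate the groups either. The G features averaged 113 ± 28.9 UMIs per 10000 in members of KD and 125 ± 33.2 in members of Ctrl, and the H features 8.62 ± 4.24 in KD and 9.26 ± 0.84 in Ctrl (SD, n = 3 each). These levels are bounded by the rule and are given without a test.

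The profiles of members were compared across animals by correlation. Over 3902 features, Pearson's r of log2 levels between the members of 2 animals ran from 0.73 (KD2 and Ctrl1) to 0.92 (KD1 and Ctrl2). Between members and other cells of the same animal it was 0.91, 0.82 and 0.96 in KD1, KD2 and KD3 and 0.96, 0.94 and 0.89 in Ctrl1, Ctrl2 and Ctrl3. The 5 pairs with Ctrl1 ran from 0.73 to 0.80, and the pair of KD3 and Ctrl2 was as low (0.76). These correlations are across features, which are not independent replicates, and the shallow library KD2 adds sampling noise.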

How the data were processed

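Hemocytes of 3 Dnmt1 KD and 3 Ctrl animals were sequenced as 1 library per animal. The deposited files hold whole-number UMI counts of 72982 features per barcode, which the authors made with Cell Ranger (7.0.0 in the file headers and methods, introns included; 4.0.0 in the submitters' processing notes, with Seurat 4.3.0). The genome index is not given in the sources used here. Features are unnamed, so no mitochondrial filter was applied. No doublet caller was run, and an alternative left out the deepest 5% of cells. The members and all lists were chosen with earlier results of these data known. Counts were summed per animal and class without the 15 rule features and tested with edgeR 4.0.16 (TMM, filterByExpr, quasi-likelihood, Benjamini-Hochberg; SE from the F statistic) or, as an alternative, DESeq2 1.42.0. Only the edgeR fitting step was tested on simulated sums, not the classing, thinning or permutation steps. Single values were compared by exact permutation tests over animals (Python 3.11.15, scipy 1.17.1). Ctrl1 was clustered with Seurat 5.3.0. Named features are the rule features and, per comparison, the 2 largest changes in each direction with at least 50 UMIs and 1 direction in all animals fitted; where none passed, the 2 with the smallest p. Alternatives covered thresholds, depth, shared barcodes, animals, normalization and filters.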

Additional observations from a re-analysis of the deposited data

Results flagged for a closer look

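The S features were also present in data outside the kept cells. In KD2, barcodes with under 100 features, which entered no comparison, held 231 S UMIs per 10000, above the level in the same barcodes of every Ctrl animal (159, 10.5 and 8.64 in Ctrl1, Ctrl2 and Ctrl3). There were 364 such barcodes in KD2 and 2760 in Ctrl1, against 13 and 139 in KD1 and KD3 and 5 and 28 in Ctrl2 and Ctrl3. Their part in the share of SGC-like cells was not tested.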

How the results depend on the processing

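The difference in the share of SGC-like cells (KD minus Ctrl, -6.02 points) turned positive with at least 200 features per cell (1.72) and in the 4 libraries that share barcodes (3.99). Without single animals it ran from -13.8 to 0.638. The S level over all cells (-38.5) was 17.0 in those 4 libraries and ran from -81.6 to 6.05 without single animals. No alternative could reach a p of 0.05, since the smallest exact p is 0.1 with 6 animals. With the replicate number as a replicate block the share differed by -6.02 (exact permutation p = 1.0), the S level by -38.5 (p = 0.25, the smallest 3 pairs can give), and 0 features were called in members (97 at an unadjusted p under 0.05). Same-numbered members did not deviate together (r = -0.20, 0.13 and 0.04), so the numbers were not taken as pairs.

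Complexity kept its direction throughout, but its p was 0.0625 with at least 200 features (8.93), without the deepest 5% of cells (7.39) and without any single animal (9.39 to 12.2), where 5 animals allow nothing smaller. The depth ratio (0.18) passed the test with S at least 3% (0.27), G under 3% (0.21), the deepest 5% left out (0.22) and low-marker cells only (0.29). Against other cells (797 features), DESeq2 called 443, low-marker cells gave 470, and 480 to 772 were called without single animals. With no count filter 701 were called, 267 higher and 434 lower. Against GC-like cells (405), no filter gave 1222, 1015 of them higher, and 281 to 539 were called without single animals. Between KD and Ctrl within members (0), no filter gave 9, all lower in KD and all with most UMIs in Ctrl1, while 0 were called without any single animal (62 to 214 at an unadjusted p under 0.05). Feature WNGS01111181.1409398_3_covsplit was among them (log2 fold change -3.82, edgeR adjusted p = 0.0065), and with the filter its log2 fold change was -2.13 without Ctrl1. The causes of these shifts were not tested. The comparison with low-marker cells and the share by the other 3 S features (-8.24 points) were chosen after seeing the data. All alternatives with cells high in both S and G were not run, since only Ctrl1 had 10 such cells.

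Depth limits the calls in KD2 and Ctrl1, where 15.1% and 5.56% of members were called on 5 or fewer S UMIs. Each animal is 1 library, so animal and library cannot be told apart, and the labels used here give no batch.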
